A study of Mus musculus with 12 samples.

Results

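MicroRNA-31 was followed through its 2 mature strands, listed on the array as mmu-miR-31 and mmu-miR-31* and called miR-31 and miR-31* below, in 3T3-L1. This mouse line of fibroblast-like preadipocytes can become fat cells in a dish. The strands were taken by name, with all 4 of their probes, out of 611 mouse miRNAs and 1759 mouse probes. They were singled out with the comparison of MDI with preadipocytes in view, where miR-31* had stood out, so that comparison is given below as a description and without a test. The 12 samples formed 4 groups of 3, each hybridised to its own single-colour array. Lithium plus MDI cells were preadipocytes given both lithium chloride (25 mM) and the differentiation medium MDI, which holds 3-isobutyl-1-methylxanthine, dexamethasone and insulin. MDI cells received the medium without lithium, for 3 days, followed by 2 days in insulin and 2 days in plain medium, with an end point at day 7. Lithium cells received lithium chloride without MDI, and preadipocytes received neither. The labels give no end day for the other 3 groups, so time in culture and treatment cannot be told apart in any comparison below. By the submitters' design, lithium, an inhibitor of the kinase GSK3, stands for active WNT signalling and MDI for suppressed WNT signalling. Separate cultures are not stated for the samples of a group. The p-values therefore cover only the spread between samples, part or all of which may be technical.

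A miRNA gene is transcribed as a hairpin, from which the enzymes Drosha and Dicer cut a short duplex. One strand of the duplex, the guide, is loaded into an Argonaute protein and directs it to messenger RNAs that match its seed, while the passenger strand is mostly discarded. Both strands leave the same transcript, so a shift in their ratio cannot be read as a shift in transcription alone. MicroRNA-31 is best known from mesenchymal and epithelial cells. In rat fat-derived stem cells it was reported to repress the adipogenic transcription factor C/EBPα, in human breast cancer cells the cytoskeletal switch RHOA, and in human lung cells the secreted WNT inhibitor DKK1.

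The mature strands are shown because the array measures each with its own probes, and their seeds differ. Capitals mark the seed, bases 2 to 8 from the 5′ end. The sequences are RefSeq's (GRCm38.p6, minus strand), and the array's miR-31 and miR-31* were matched to the 5p and the 3p arm by the older naming convention.
miR-31 (guide, 5p): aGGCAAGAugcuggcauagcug
miR-31* (passenger, 3p): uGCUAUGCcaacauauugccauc
The guide lies at chr4:88910614-88910635 and holds 22 bases, of which 12 are G or C (54.5%). The passenger lies at chr4:88910577-88910599 and holds 23 bases, of which 10 are G or C (43.5%). Among 1679 mature mouse names in the RefSeq table, none besides the strand itself carried either seed. The nearest other mature sequence was 6 edits away for the guide (miR-449c-5p) and 8 edits away for the passenger (miR-3963).

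The hairpin is printed to show where the strands sit in it, with both mature strands in capitals and a loop of 14 bases between them.
Mir31 hairpin: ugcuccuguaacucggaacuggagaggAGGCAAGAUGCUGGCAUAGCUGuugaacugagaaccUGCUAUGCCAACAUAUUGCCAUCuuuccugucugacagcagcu
It spans 106 bases at chr4:88910557-88910662, overlaps the long non-coding RNA gene Gm49890, and has Ifne (interferon epsilon) and Mtap (methylthioadenosine phosphorylase) as its nearest coding genes. Whether it falls in an exon or an intron of Gm49890 is not given in the table used. Folding the mature strands against each other with ViennaRNA's RNAduplex gave 17 base pairs, 9 of G with C and 8 of A with U, at a computed free energy of -27.2 kcal/mol. Of the first 4 bases of the guide 3 were paired, all 3 with a G to C pair. Of the first 4 bases of the passenger 3 were paired as well, 2 of them with a G to C pair.

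The arrays detected 126 to 175 miRNAs each. To scale an array, its signals were divided by the 75th percentile of 181 probes that were detected everywhere, and this divisor was 503 to 780 on the preadipocyte arrays against 264 to 477 on the other 9. Arrays 1 to 3 of preadipocytes and array 1 of MDI share slide 1 (4 arrays), and the other 8 share slide 2. By correlation over the tested miRNAs, 6 of the 12 arrays were closer to another group than to their own. Lithium plus MDI array 3, lithium array 1 and preadipocyte array 3, set apart in an earlier look at these data, had the lowest mean correlations of the 12 to their own group (0.924, 0.942 and 0.939), with 0.965, 0.960 and 0.957 to the nearest other group. Lithium plus MDI array 2 came next, at 0.944 to its own group and 0.966 to MDI, a wider gap than that of lithium array 1 or preadipocyte array 3. Of 7 mesenchymal marker miRNAs, all 7 were detected and 6 of them on all 12 arrays. Markers of other cell types were detected for epithelium (1 of 7, miR-205) and neural tissue (1 of 5, miR-128), and for muscle (0 of 5), blood (0 of 6) and liver with endothelium (0 of 3) there were none. Precision is limited by the number of arrays.

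Each strand has 2 probes of 10 spots, and the brighter probe represents it below. Both brighter probes were detected on all 12 arrays. Kept spots of one probe on one array varied with a coefficient of variation of 2.45% to 6.54% for miR-31 and 3.93% to 12.5% for miR-31*. The standard error from spots was at most 0.057 on the log2 scale, against standard deviations between arrays of one group of 0.28 to 0.81. The dimmer probes followed the brighter ones over the 12 arrays (r = 0.995 for miR-31 and 0.987 for miR-31*). On the dimmest arrays as few as 70% of the kept spots of the dimmer miR-31* probe were well above background, so that probe was read only as a check.

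The passenger strand miR-31* was lowest in preadipocytes once the arrays were scaled. Before scaling it gave 53.5, 85.4 and 51.0 units in lithium plus MDI, and 35.6, 56.5 and 67.4 in MDI. It gave 40.0, 36.5 and 37.6 units in lithium, against 34.6, 38.0 and 36.6 in preadipocytes. The unscaled signal thus lay between 34.6 and 40.0 on every lithium and preadipocyte array and on MDI array 1, and at 51.0 or above on the remaining arrays. After scaling, the log2 values were -2.31, -2.215 and -3.22 in lithium plus MDI and -2.89, -2.76 and -2.35 in MDI. They were -2.99, -3.49 and -3.46 in lithium, against -3.86, -3.92 and -4.41 in preadipocytes. The scaled preadipocyte arrays were the lowest of all, with no overlap with any other group. In the order of group means, lithium plus MDI (-2.58 ± 0.56; SD, n = 3 for this and the next values) and MDI (-2.67 ± 0.29) overlapped. Lithium (-3.31 ± 0.28) lay below MDI, with the nearest arrays at -2.99 and -2.89, and preadipocytes (-4.065 ± 0.30) below lithium. Before scaling, MDI array 1 (35.6) lay below every lithium array.

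The guide strand miR-31 was ordered otherwise. Before scaling it gave 264, 393 and 303 units in lithium plus MDI and 248, 257 and 218 in MDI. It gave 226, 140 and 147 units in lithium, against 443, 472 and 250 in preadipocytes, which held the highest values. After scaling, the log2 values were -0.0041, -0.012 and -0.65 in lithium plus MDI and -0.10, -0.57 and -0.65 in MDI. They were -0.48, -1.55 and -1.49 in lithium, against -0.18, -0.29 and -1.64 in preadipocytes. Preadipocyte array 3 lay far below the other preadipocyte arrays, and lithium array 1 far above the other lithium arrays. In the order of group means, lithium plus MDI (-0.22 ± 0.37), MDI (-0.44 ± 0.30), preadipocytes (-0.70 ± 0.81) and lithium (-1.18 ± 0.60; SD, n = 3 each) overlapped from each neighbour to the next.

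**Figure D1:**
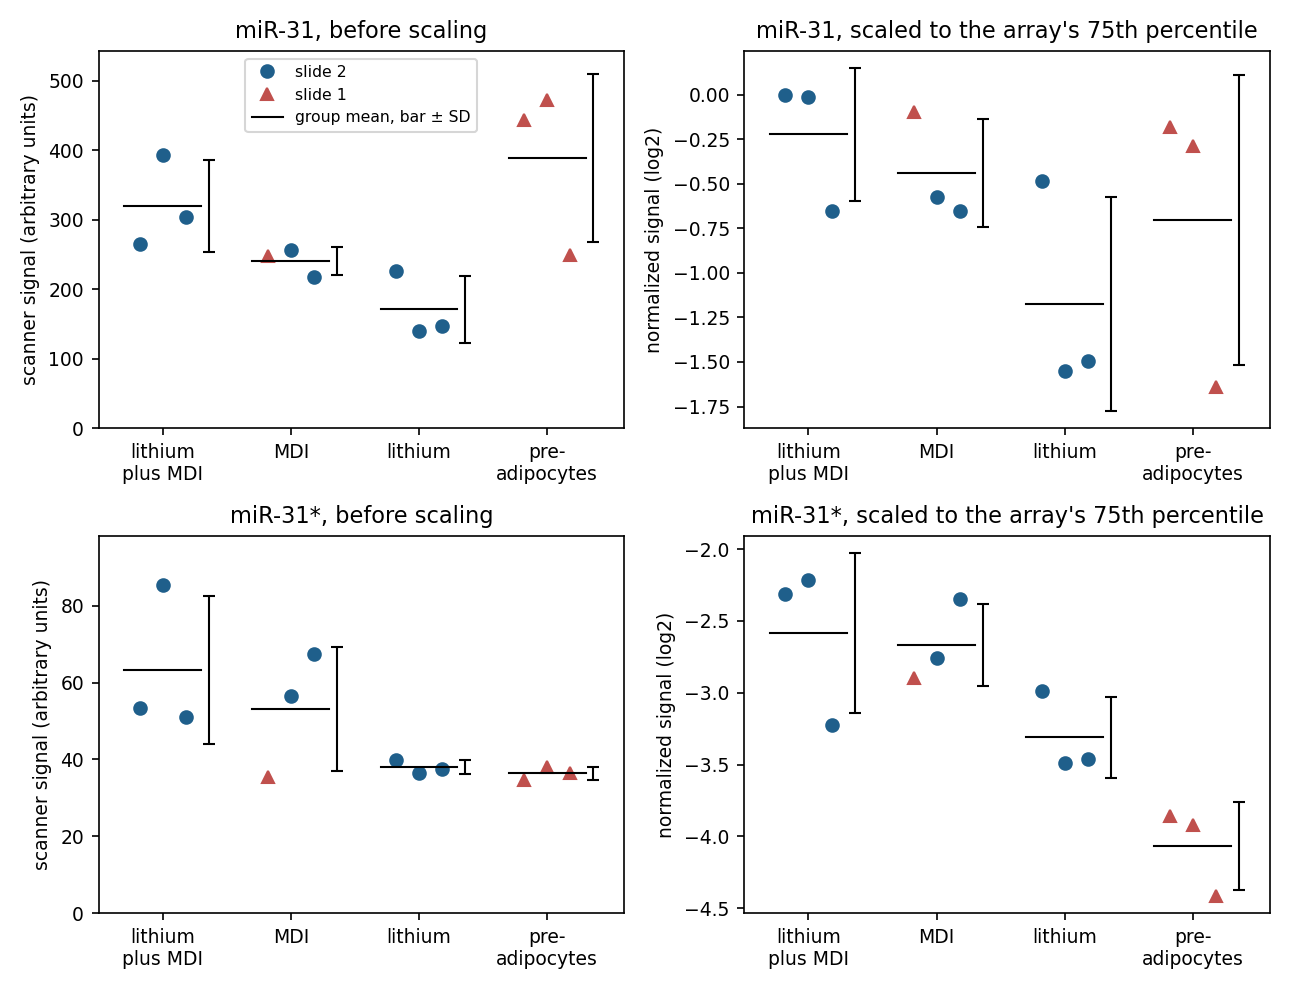
Signal of miR-31 (top) and miR-31* (bottom) on each of the 12 arrays, before scaling in scanner units (left) and after division by the array's 75th percentile on the log2 scale (right), by group. Points are arrays (circles slide 2, triangles slide 1), lines group means and bars ± SD (n = 3). Before scaling miR-31* lies between 34.6 and 40.0 units on all lithium and preadipocyte arrays, and after scaling the preadipocyte arrays lie lowest.

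MDI given on top of lithium was compared with lithium alone, 2 groups that share no array with the comparison the strands were chosen from. Both lie wholly on slide 2. Only the means and the permutation test are free of the other arrays. The limma SE, interval and p take their spread from all 12 arrays, those of MDI and preadipocytes included. Both strands had higher means in lithium plus MDI. The difference was 0.95 on the log2 scale for miR-31 (SE 0.41, 1.94-fold, 95% interval 0.066 to 1.84), with an adjusted p of 0.144 by limma. It was 0.73 for miR-31* (SE 0.31, 1.66-fold, 95% interval 0.049 to 1.41), also with an adjusted p of 0.144 by limma. Neither strand passed, and 0 of the 157 tested miRNAs did (0%), while 48 (30.6%) had an unadjusted p under 0.05, the strands among them. Both strands overlapped between the groups, through lithium plus MDI array 3 and lithium array 1, whereas 33.8% of the tested miRNAs did not overlap. The exact two-sided permutation p was 0.2 for each strand, where 0.1 is the smallest that 3 arrays against 3 allow. The median over all tested miRNAs was 0.39, and miR-31 ranked 16th and miR-31* 40th from the highest of 157. Fitted on the slide 2 arrays alone, which still hold MDI arrays 2 and 3, neither strand passed either (limma adjusted p = 0.0953 for miR-31 and 0.143 for miR-31*). In that fit 9.55% of the tested miRNAs passed.

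The call in this comparison turned on the arrays that stood apart. Without the 3 arrays named above, miR-31 was higher in lithium plus MDI by 1.51 (limma adjusted p = 0.000681) and miR-31* by 1.21 (limma adjusted p = 0.00196), in a fit in which 56.1% of the tested miRNAs passed. Without lithium array 1 alone, miR-31 had a difference of 1.30 (limma adjusted p = 0.0491; 20.4% of miRNAs passed) and miR-31* one of 0.89 that did not pass (limma adjusted p = 0.0707). Without lithium plus MDI array 3 alone, miR-31* had a difference of 1.05 (limma adjusted p = 0.0200; 24.2% passed) and miR-31 one of 1.17 that did not pass (limma adjusted p = 0.0726). Without lithium plus MDI array 2 neither passed, at 0.85 for miR-31 (limma adjusted p = 0.337) and 0.54 for miR-31* (limma adjusted p = 0.381), so the calls depend on which arrays are left out. The 3 arrays that stood apart were set aside for their place among all miRNAs. Lithium plus MDI array 3 and lithium array 1 are also the arrays through which both strands overlapped. Leaving out arrays far from their own group narrows the spread within groups, so the passes without them are no separate support. Why these arrays stand apart was not tested.

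Lithium was compared with preadipocytes next, a comparison that shares the preadipocyte arrays with the one the strands were chosen from and is therefore not independent of the choice. No slide holds both groups, so slide and lithium cannot be told apart here. The guide had a lower mean in lithium, by -0.47 on the log2 scale (SE 0.41, 95% interval -1.36 to 0.41, limma adjusted p = 0.501), and the passenger a higher one, by 0.75 (SE 0.31, 1.69-fold, 95% interval 0.075 to 1.43, limma adjusted p = 0.163). Neither passed, against 6.37% of the tested miRNAs, whose median was -0.07. The passenger did not overlap between the groups (exact two-sided permutation p = 0.1), as was the case for 17.2% of the tested miRNAs in the higher direction and 29.9% in either.

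These values depended on the scale given to the arrays. Without scaling, miR-31* differed between lithium and preadipocytes by 0.063 on the log2 scale (limma adjusted p = 0.869), and with all mouse probes setting the percentile by -0.14 (limma adjusted p = 0.719). The guide was then lower in lithium by more, at -1.16 without scaling (limma adjusted p = 0.0105, 47.1% of miRNAs passing) and at -1.37 with all mouse probes (limma adjusted p = 0.0219, 49.7% passing). It also passed without the 3 arrays that stood apart, at -1.29 (limma adjusted p = 0.0023, 52.9% passing). The divisor was highest on the preadipocyte arrays, as given above. With the slide as a block, which leaves the comparison resting on MDI array 1, the difference was 0.047 for the guide and 0.41 for the passenger.

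Lithium plus MDI was compared with MDI alone. The MDI arrays were part of the comparison the strands were chosen from, so this test is not independent of that choice either. The difference was 0.22 for miR-31 (SE 0.41, 95% interval -0.67 to 1.1, limma adjusted p = 0.969) and 0.084 for miR-31* (SE 0.31, 95% interval -0.60 to 0.76, limma adjusted p = 0.981). Neither strand passed, nor did any of the 157 miRNAs (0%), with 6 (3.82%) at an unadjusted p under 0.05. Both strands overlapped between the groups, as did all but 12.1% of the tested miRNAs. On slide 2 alone the difference was 0.39 for miR-31 and -0.030 for miR-31*. The intervals leave room for a difference of up to 1.1 and 0.76 in favour of the combined treatment.

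MDI against preadipocytes is the comparison the strands were chosen from, and its values are a description. The passenger was higher in MDI by 1.40 on the log2 scale (SE 0.31, 2.64-fold), the third highest of the 157 tested miRNAs, and did not overlap between the groups. The guide had a difference of 0.26 (SE 0.41), 62nd from the highest, and overlapped. In this comparison 3.18% of the tested miRNAs passed in either direction and 15.9% did not overlap in the higher direction. The passenger difference was 0.50 without scaling and 0.59 with all mouse probes setting the percentile, and MDI array 1, on the slide of the preadipocytes, had an unscaled signal of 35.6 within the preadipocyte range. With the slide as a block the difference was 1.17 for the passenger and 0.61 for the guide. That fit rests on MDI array 1 alone, the only MDI array on the slide of the preadipocytes. Lithium plus MDI against preadipocytes had the same order, with 1.48 (SE 0.31) for the passenger and 0.48 (SE 0.41) for the guide. There 1.27% of the tested miRNAs passed and 14% did not overlap in the higher direction. No slide holds both of these groups, so slide and treatment cannot be told apart. The passenger difference was 0.76 without scaling and 0.43 with all mouse probes, and the guide difference -0.24 and -0.57. The MDI and the lithium plus MDI comparison share the preadipocyte arrays with each other and with that of lithium, so their likeness is no separate evidence. The MDI difference with lithium minus the one without lithium was 0.69 (SE 0.58) for the guide and -0.67 (SE 0.45) for the passenger. Without scaling these values were 1.56 and 0.20, and with all mouse probes setting the percentile 1.35 and -0.011. The sign for the passenger thus depended on the scale.

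**Figure D2:**
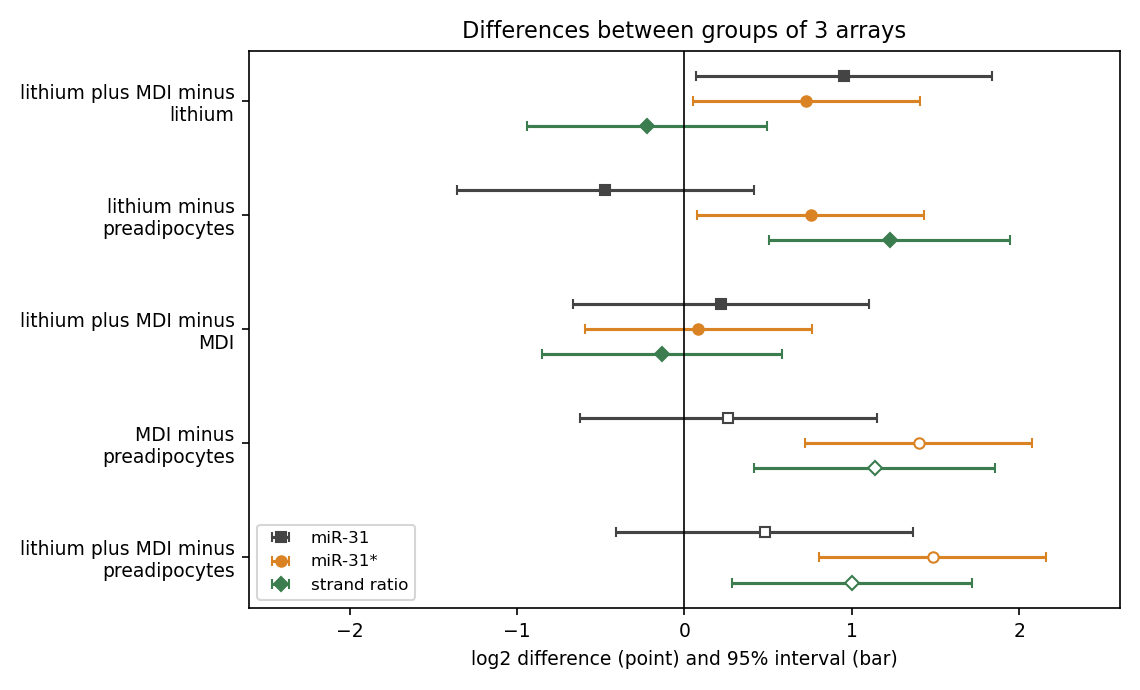
Log2 differences between groups for miR-31 (squares), miR-31* (circles) and their strand ratio (diamonds), with 95% intervals from limma over 12 arrays. Filled symbols are tested comparisons and open symbols are descriptions without a test. Of the tested ones, only lithium plus MDI minus lithium compares groups that share no array with the comparison the strands were chosen from. Its intervals still use the spread of all 12 arrays. In lithium plus MDI minus lithium the intervals of both strands lie just above 0 before adjustment (0.066 and 0.049 at their lower ends). In lithium minus preadipocytes the guide point lies below 0, with an interval that spans 0, and the passenger point above 0. Neither strand passed there, and the passenger's side depends on the scale (-0.14 with all mouse probes setting the percentile).

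The strand ratio, miR-31* over miR-31 on the same array, is free of the array's scale. Its level is set by the different probes of the strands and is not read, only its differences between arrays. The log2 ratio was -2.31, -2.20 and -2.57 in lithium plus MDI and -2.80, -2.18 and -1.69 in MDI. It was -2.50, -1.94 and -1.97 in lithium, against -3.68, -3.63 and -2.77 in preadipocytes. The 3 treated groups, at means of -2.36 ± 0.19, -2.23 ± 0.55 and -2.14 ± 0.32 in that order, overlapped each other, and preadipocytes were lowest at -3.36 ± 0.51 (SD, n = 3 each).

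**Figure D3:**
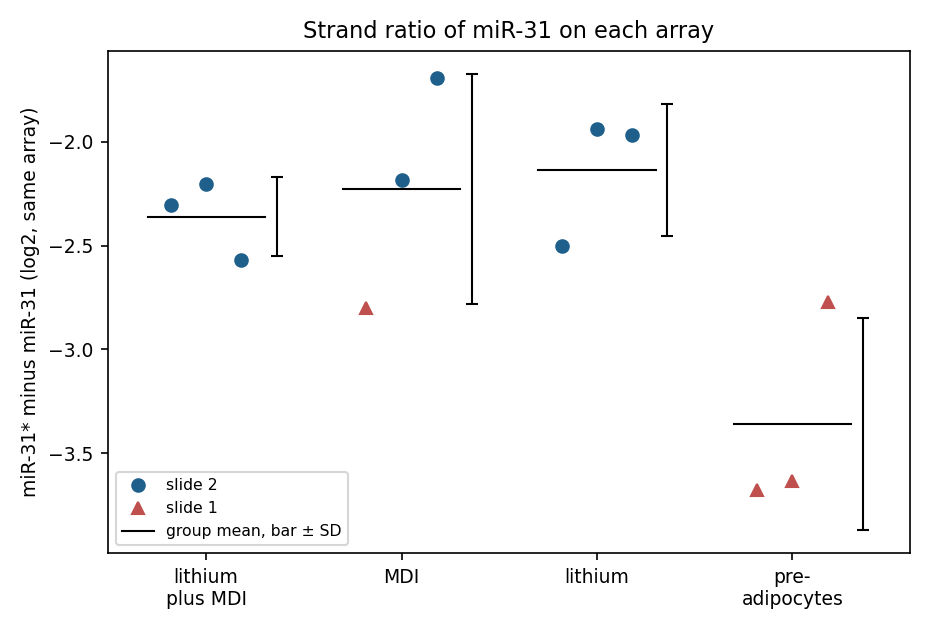
Log2 strand ratio of miR-31 (miR-31* minus miR-31 on the same array) on the 12 arrays by group. Circles are slide 2 arrays, triangles slide 1 arrays, lines group means and bars ± SD (n = 3). All slide 1 arrays lie at -2.77 or below and all slide 2 arrays at -2.57 or above, with the brighter probe of each strand. Slide 1 holds only preadipocytes and MDI array 1, so slide and group cannot be told apart beyond that array. With the dimmer probe of both strands the slides overlap.

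Between lithium and preadipocytes the ratio was higher in lithium by 1.23 on the log2 scale (SE 0.33, 2.34-fold, 95% interval 0.51 to 1.94). This passed over the 11 guide and passenger pairs with both strands tested (limma adjusted p = 0.0306), where 1 of 11 did (9.09%). The low miR-31* of the preadipocyte arrays was part of what the strands were chosen for, and the same arrays are the baseline here, so this test is not independent of the choice. The groups did not overlap, as in 27.3% of the pairs, and the exact two-sided permutation p was 0.1, the smallest possible. Before scaling, the passenger differed between lithium and preadipocytes by 0.063 and the guide by -1.16. The slide moved with the strand ratio. All 4 slide 1 arrays, MDI array 1 included, lay between -3.68 and -2.77, and all 8 slide 2 arrays between -2.57 and -1.69. MDI array 1 lay within the preadipocyte range. In a fit with the slide as a block, where MDI array 1 alone ties the slides together, the difference was 0.37 (limma adjusted p = 0.750). Of the 11 ratios, that of miR-31 was the only 1 whose slides did not overlap (9.09%). Of the 10 other pairs, 7 had the passenger at the floor set for low signals on some arrays. Among single miRNAs 2 of the 157 tested (1.27%), miR-16 and miR-30e*, separated the slides. With the dimmer passenger probe the ratios of the slides overlapped, by either guide probe, while the difference of lithium from preadipocytes was 1.16 to 1.28 over the 4 probe combinations. With the dimmer probe of both strands lithium and preadipocytes overlapped. On preadipocyte array 3 the dimmer passenger probe lay at that floor (-4.97), which clips its ratios upward there. Overlaps that rest on that array therefore cannot be read. With both dimmer probes the ratio of MDI array 1 (slide 1) lay just above that of lithium plus MDI array 3 (slide 2). Their passenger and guide values were -3.582 and -0.991 against -4.042 and -1.446, none at the floor, so that overlap of the slides stands.

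The ratio call also rested on single arrays. Without lithium array 2, lithium array 3, preadipocyte array 1 or preadipocyte array 2 the difference was 1.13, 1.14, 1.07 and 1.09 in that order, and none of these passed (limma adjusted p 0.144 to 0.176). Between lithium plus MDI and lithium, both on slide 2, the ratio differed by -0.22 (SE 0.33, 95% interval -0.94 to 0.49), with a limma adjusted p of 0.658 and an exact permutation p of 0.3. No pair passed in that comparison (0%), and 18.2% did not overlap. Between lithium plus MDI and MDI it differed by -0.13 (SE 0.33, 95% interval -0.85 to 0.58, limma adjusted p = 0.882), and again no pair passed (0%). The ratio was higher in MDI than in preadipocytes by 1.14 (SE 0.33), which is given as a description, and it overlapped between these groups through MDI array 1 and preadipocyte array 3.

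The other pairs were measured less fully. Guide and passenger were assigned by array name alone, X and X*, and not by abundance. The miR-140* probe was brighter than that of miR-140 on every array (log2 ratio 0.086 to 0.77). Of the 10 other pairs, 7 had the passenger at the floor on 1 to 5 arrays, which clips their ratios, so their differences are given without an order. Between lithium plus MDI and lithium, the pairs named for the size of their fitted differences in strand ratio were miR-322 (0.89, SE 0.48), miR-214 (0.59, SE 0.28), let-7b (0.57, SE 0.35) and miR-877 (-0.55, SE 0.42), all with a limma adjusted p of 0.378, and all 4 had the passenger at the floor on some arrays. Between lithium and preadipocytes, the pairs with neither strand at the floor differed by 0.41 (miR-30e, SE 0.41), 0.23 (miR-34c, SE 0.21) and 0.10 (miR-140, SE 0.24), and none of these passed (limma adjusted p 0.679 to 0.856).

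**Figure D4:**
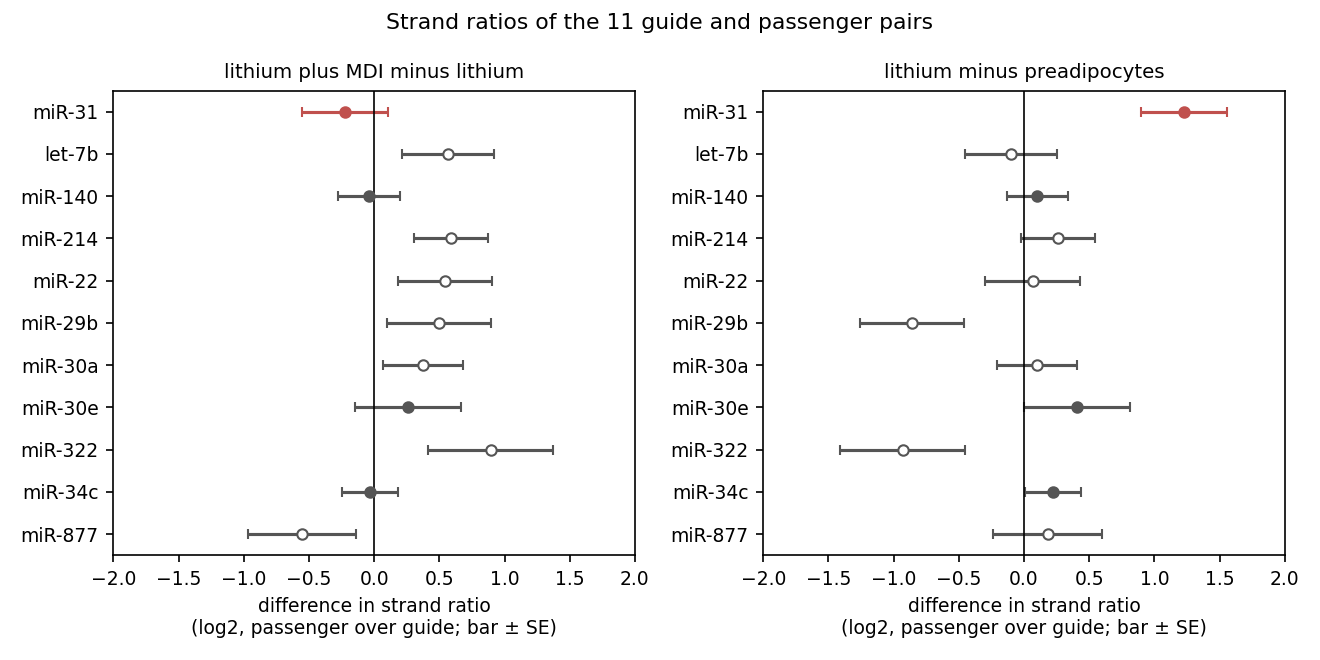
Difference in strand ratio (log2, passenger over guide, point; bar ± SE) of the 11 pairs with both strands tested, for lithium plus MDI minus lithium (left) and lithium minus preadipocytes (right), with the other pairs sorted by name. Passenger and guide are the array names with and without a star. Open symbols are pairs with a strand at the floor on at least 1 array, whose values are clipped. The pair of miR-31 (red) lies at -0.22 on the left and at 1.23 on the right.

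The strands moved together only in part. Over the 12 arrays, the normalized signals of miR-31 and miR-31* had a Pearson r of 0.55 (permutation p = 0.0674) and a Spearman rho of 0.54 (permutation p = 0.0743). Without preadipocyte array 3 and lithium array 2, the arrays farthest from the median of miR-31, r over the rest was 0.27, so the pooled value depends on them. Within the 8 slide 2 arrays, which leave out preadipocyte array 3, r was 0.86 (exact permutation p = 0.00489). Over all 12 arrays, preadipocyte array 3 included, r was 0.66 after taking out the group means. Slide 1 holds too few arrays for a value. This was the only relation tested across arrays, and arrays of one group and one scale are not independent points.

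The miRNAs most like each strand over the 12 arrays were named by Pearson r, as a description that shares scale and slide. For miR-31 they were miR-24 (0.97), miR-27b (0.95), miR-99b (0.95), miR-23a (0.94) and miR-28 (0.93), of which miR-24, miR-27b and miR-23a belong to the miR-23, miR-27 and miR-24 clusters. The lowest were miR-503 (-0.87), let-7c (-0.87) and miR-146b (-0.93). The normalized log2 level of miR-24 was 2.26 ± 0.20 in lithium plus MDI, 1.91 ± 0.40 in MDI, 1.23 ± 0.52 in lithium and 1.82 ± 0.61 in preadipocytes (SD, n = 3 each), with lithium lowest as for miR-31. For miR-31* the most alike were miR-669f (0.87), miR-18a (0.85), miR-374 (0.83), miR-93 (0.82) and miR-20a (0.82), of which miR-18a and miR-20a belong to the cluster of miR-17 and its neighbours. The lowest were miR-10b (-0.85), miR-99a (-0.85) and miR-210 (-0.90), the last known for its induction by low oxygen. On the preadipocyte arrays miR-669f and miR-18a lay at or next to the floor (-4.97), where values have no order, and miR-18a in lithium (-4.86) and miR-374 in lithium (-4.85) and preadipocytes (-4.78) lay close to it. Likewise miR-503 was detected on 1 of 3 arrays in lithium plus MDI and 1 of 3 in preadipocytes. The normalized log2 level of miR-20a was -1.44 ± 1.13 in lithium plus MDI, -1.01 ± 0.13 in MDI, -1.89 ± 0.12 in lithium and -2.39 ± 0.21 in preadipocytes (SD, n = 3 each), with preadipocytes lowest as for miR-31*. In the list of the other strand miR-31* ranked 62nd of 156 beside miR-31, and miR-31 ranked 48th of 156 beside miR-31*. Their r of 0.55 was above the median r over all other miRNAs, which was 0.44 for miR-31 and 0.27 for miR-31*.

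Other miRNAs with reported roles near those of miR-31 were set beside it as lists. Of 13 miRNAs reported to inhibit fat cell differentiation 9 were tested. None passed between lithium plus MDI and lithium (0% of all tested miRNAs did), where their median was 0.68, against 0.39 for all tested miRNAs. The largest there were miR-27b (1.57, SE 0.54, limma adjusted p = 0.0849), reported to repress the fat cell regulator PPARγ, miR-221 (1.05, SE 0.31, limma adjusted p = 0.0728) and miR-222 (0.92, SE 0.42, limma adjusted p = 0.160). Between lithium and preadipocytes 1 of the 9 passed, against 6.37% of all tested miRNAs. It was miR-155, an inflammation-linked miRNA, which fell by 1.42 (SE 0.38, limma adjusted p = 0.0382), and the list median was -0.05 against -0.07 for all. Between lithium plus MDI and MDI none of the 9 passed (0% of all), with a median of 0.42 against 0.18 for all. Of 17 miRNAs reported to act on WNT signalling or bone formation 7 were tested, and none passed in these 3 comparisons, against 0%, 6.37% and 0% of all tested miRNAs in the same order. Their medians were 0.39 for lithium plus MDI against lithium, 0.11 for lithium against preadipocytes and 0.24 for lithium plus MDI against MDI. Among them miR-210 differed by -0.97 (SE 0.44, limma adjusted p = 0.153) and miR-29b by 0.77 (SE 0.41, limma adjusted p = 0.217) between lithium plus MDI and lithium.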

How the data were processed

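Total RNA (0.5 ug a sample) was labelled with Cy3 and hybridised to 12 Agilent mouse miRNA arrays, per the labels' protocols. The deposited scanner files give the intensity of each spot, after background subtraction by Agilent Feature Extraction and before any scaling across arrays, per the file headers. The headers name version 10.5.1.1 and the submitters' processing notes version 9.5.3. The authors' deposited value table was read as log2, since its columns follow the log2 total gene signal (r = 0.997 to 0.999 over the tested miRNAs). Its steps are not given in the sources used here, and it served only as an alternative.

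Outlier spots were dropped, spots of a probe averaged, and signals divided by the array's 75th percentile of 181 probes detected everywhere. The floor was the 5th percentile of probes well above background (-4.97, log2). A probe counted as detected when a share over 0.5 of its kept spots exceeded background well, and the brightest probe stood for a miRNA. The 157 miRNAs detected on all 3 arrays of a group entered limma 3.58.1 (R 4.3.3) as 4 group means without a block, tested two-sided with Benjamini-Hochberg adjustment at 0.05. Strand ratios of 11 pairs were fitted alike, and the fit was tested on simulated data. Exact permutation tests used the 6 arrays of a comparison, and correlations over 12 arrays used 1e+05 permutations. Figures were drawn with matplotlib 3.10.9, and duplexes folded with ViennaRNA 2.7.2.

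The named miRNAs were the members, the 5 most and 3 least alike by r, up to 4 pairs by largest ratio difference, and up to 3 members of each list by largest difference. Members and lists were chosen with earlier results of these data known. Alternatives covered scaling, background correction, probe summary, filters, slide, replicate block and left-out arrays. Same-numbered arrays did not deviate together (mean r 0.06, from -0.48 to 0.47 over 18 pairs), so the numbers were not taken to pair samples.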

Additional observations from a re-analysis of the deposited data

How the results depend on the processing

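In lithium plus MDI against lithium, both strands stayed positive and the ratio negative under all 17 alternatives and 12 left-out arrays. Leaving out 1 array gave 0.77 to 1.30 for miR-31, 0.54 to 1.05 for miR-31* and -0.41 to -0.12 for the ratio. Both strands passed without the 3 arrays that stood apart (1.51 and 1.21).

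In lithium against preadipocytes, leaving out 1 array gave -0.94 to -0.21 for miR-31, 0.58 to 0.86 for miR-31* and 1.07 to 1.52 for the ratio. The guide passed with all mouse probes setting the percentile (-1.37), unscaled (-1.16) and without the 3 arrays (-1.29), and was 0.047 with the slide as a block. The passenger was -0.14 with all mouse probes and -0.22 with normexp background correction. The ratio no longer passed with normexp (0.14), with normexp without spots of high local background (0.86), in the authors' deposited table (0.89), without a detection filter (1.23, limma adjusted p = 0.0817) or with the slide as a block (0.37). The planned normexp fit failed on preadipocyte array 1, where 23 spots with local background over 100 set its mean parameter at -664, against 9.31 to 22.6 on the other arrays. None of the 23 belongs to the strands, and the version without such spots was added after seeing the data.

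In lithium plus MDI against MDI, where nothing passed, leaving out 1 array gave 0.11 to 0.43 for miR-31, -0.10 to 0.40 for miR-31* and -0.42 to 0.13 for the ratio. The guide changed sign with all mouse probes (-0.019) and in the authors' table (-0.071). The passenger did so with all mouse probes (-0.15), quantile normalization (-0.13), both normexp versions (-0.053), the authors' table (-0.20), total gene signal (-0.069), and the slide as a block or slide 2 alone (-0.030).

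In MDI against preadipocytes, leaving out 1 array gave -0.21 to 0.52, 1.22 to 1.51 and 0.87 to 1.43 for guide, passenger and ratio. The guide was -0.55 with all mouse probes and -0.64 without scaling. The passenger was 0.59 with all mouse probes, 0.50 without scaling, 0.16 with normexp and 0.93 with its added version. The ratio was -0.049 with normexp, 0.67 with its added version, 0.70 in the authors' table and 0.56 with the slide as a block. The slide block leaves this comparison resting on MDI array 1 alone. The cause of these shifts was not tested, beyond the scale and the spots named.

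The replicate block moved no call on the strands (ratio 1.23 in lithium against preadipocytes, limma adjusted p = 0.0192), and 16 miRNAs then passed in lithium plus MDI against lithium, against 0. Over all alternatives and left-out arrays the number of miRNAs that passed ranged from 0 to 88 for lithium plus MDI against lithium, 0 to 83 for lithium against preadipocytes, 0 to 62 for MDI against preadipocytes and 0 to 44 for lithium plus MDI against preadipocytes. Slide 2 alone holds no preadipocytes and gives no value for comparisons with them. The number was 0 throughout for lithium plus MDI against MDI.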
